A study of Mus musculus with 24 samples.

Results

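The genes described here are *Znrd1* and 6 other subunits of RNA polymerase I, namely *Polr1a*, *Polr1b*, *Polr1c*, *Polr1d*, *Polr1e* and *Twistnb*. They are 7 of the 13998 genes in the deposited table of hypothalamic transcripts, and all 7 listed names were found in its column of gene symbols. *Znrd1* was picked because its level differed between the genotypes compared here, so its difference is given as a description with no test. The other 6 were picked as its partners in the enzyme.

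RNA polymerase I is the nucleolar enzyme that transcribes the ribosomal RNA genes into the precursor of the large ribosomal RNAs, and it does so in every nucleated cell that makes ribosomes. Its 2 large subunits form the catalytic cleft, an assembly platform is shared with RNA polymerase III, and smaller subunits are shared with all nuclear RNA polymerases or are particular to polymerase I. *Znrd1* (zinc ribbon domain containing 1) is a small zinc-binding subunit at the rim of the enzyme, related to subunits of the other polymerases and to elongation factors of the TFIIS type, and it takes part in cleavage of the nascent RNA.

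The samples were hypothalami of 24 adult male F2 mice, 10 to 16 weeks old when phenotyping began, from a cross of C57BL/6J with a subcongenic strain, with 1 library per mouse. The 12 *cast/cast* mice were homozygous for CAST/EiJ alleles across a segment in the proximal part of chromosome 17, and the 12 *b6/b6* mice carried C57BL/6J alleles there. Both groups were *b6/b6* elsewhere in the genome, and all CAST alleles descended from a single congenic male. Both groups had taken a choice test between a carbohydrate/protein and a fat/protein diet, returned to chow, and met the 2 diets again for about 48 h before tissue was taken after a fast of 4 h. The *cast/cast* mice were those with the highest and the *b6/b6* mice those with the lowest carbohydrate intake, so genotype and intake cannot be told apart in the comparison between groups.

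Transcripts were measured by serial analysis of gene expression, in which a 27-base tag at an NlaIII site (CATG) near the 3′ end stands for each transcript. The unit is the normalized count, the number of tag hits divided by a size factor for the library, and because a transcript gives a single tag it was not scaled with transcript length. Total tag hits ran from 7754202 to 13082873 in *b6/b6* mice and from 9237614 to 12078078 in *cast/cast* libraries. Libraries of 4 mice, *b6/b6* mice 6 and 12 and *cast/cast* mice 4 and 6, correlated with the others less well by more than 3 scaled median absolute deviations, and the subunits' differences are given with and without them. All 4 had study numbers below 150, a range that held 5 *b6/b6* and 7 *cast/cast* mice. All 9 markers of hypothalamic neurons were measured, with a summed normalized count of 10581 to 28141 in *b6/b6* mice and 5596 to 31570 in *cast/cast* mice, and the summed levels of all 9 cell type lists overlapped between genotypes. *Cast/cast* mice 4 and 6 held the lowest hypothalamic neuron sums of their genotype (5596 to 7614, median 16450), the lowest ependymal sums (499.7 to 584.2, median 1275) and low astrocyte sums (8075 to 9145, median 12839). Their sums for the general neuron list were 46895 to 58643 (median 46459) and for microglia 2253 to 5106 (median 2265). Both of these reached the highest value of the genotype. Their oligodendrocyte sums were 12945 to 24362.5 (median 26768). The part of these marker levels in the results was not tested. Of the marker genes only the ciliary gene *Rsph1*, itself on the CAST segment, was called, higher in *cast/cast*.

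*Znrd1* (NM_023162) lies on the minus strand at chr17:36954358-36958428 (GRCm38), within the CAST segment. Its mature transcript of 686 bases contains only 2 CATG sites, so its count could come from no more than 2 tags. These tags, predicted from the annotated transcript, are shown because a *Znrd1* count had to come from them, with CATG in capitals.
3′-most tag: CATGctttgttctcagaataagatcgt
second tag: CATGgagctggcccgcccccgctccaa
The 3′-most tag lies in the 3′ UTR in exon 4 of 4, at chr17:36954410-36954436, and the second lies in exon 1, partly in coding sequence, at chr17:36958259-36958285. Both were found in GENCODE transcripts of no other gene. They are reference (C57BL/6J) sequences, and the CAST sequence was not analysed here, so a lower transcript level and a tag that no longer aligned cannot be told apart. In tissue RNA, fewer cells of a type and less RNA per cell cannot be told apart either.

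The tags of the other subunits were predicted in the same way, as the 3′-most site of each transcript. They are the bases that each gene's values below would stand for if only that site was counted, which is not known.
Polr1a: CATGgctggaactggctgttagaagat
Polr1b: CATGcagggcagggcgccttctttctg
Polr1c: CATGagaaactcaagaaggctgtgcgg
Polr1d, short transcript: CATGtactgtcctgtaggaaagaaaat
Polr1d, long transcript: CATGgcccccgcatatccgtggtgtct
Polr1e: CATGatcacttgaaaaagcagcaagaa
Twistnb: CATGtgttgtctgtcagtacaaaatat
Of these 7 tags, that of *Polr1c* lay in coding sequence (exon 8 of 9, chr17:46244334-46244360, minus strand) and the other 6 lay in the last exon, in the 3′ UTR. They were at chr6:71979332-71979358 for *Polr1a*, chr2:129126481-129126507 for *Polr1b*, chr5:147078977-147079003 and chr5:147111178-147111204 for *Polr1d*, chr4:45033527-45033553 for *Polr1e* and chr12:33439336-33439362 for *Twistnb*, all on the plus strand of GRCm38. The *Polr1b* tag also occurs in a transcript of *Plekha5* and the *Twistnb* tag in one of *Gm43083*, so the counts of these 2 genes are uncertain to that extent. *Polr1a* had 34 CATG sites, *Polr1b* 31, *Polr1e* 17 and *Twistnb* 14, against 4 in *Polr1c* and the 2 in *Znrd1*.

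In *b6/b6* hypothalamus *Znrd1* had a middling to high mean count, at the percentile 72.1 of all genes. Its normalized count ran from 227.3 to 605.9 with a median of 477.3 (mean 448.4 ± 136, SD, n = 12), from 209 to 770 tag hits per mouse. In *cast/cast* mice it ran from 1.04 to 10.99 with a median of 5.55 (mean 5.33 ± 3.29, SD, n = 12), from 1 to 12 tag hits, and 5 of the 12 mice had 3 hits or fewer. Every *cast/cast* mouse thus lay below every *b6/b6* mouse, and the lowest *b6/b6* values belonged to mice 12 and 6, whose libraries stood apart. The mean was 84.1-fold lower in *cast/cast* mice, and the log2 fold change on the log2(normalized count + 1) scale was −6.28. Genotypes that do not overlap were seen for 47 of 13998 genes (0.336%), and *Znrd1* was chosen as such a gene. Without the 4 mice that stood apart the means were 489.7 ± 105 and 5.91 ± 3.32 (SD, n = 10 each), and the log2 fold change was −6.12 in mice with study numbers below 150 and −6.43 in those above.

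**Figure D1:**
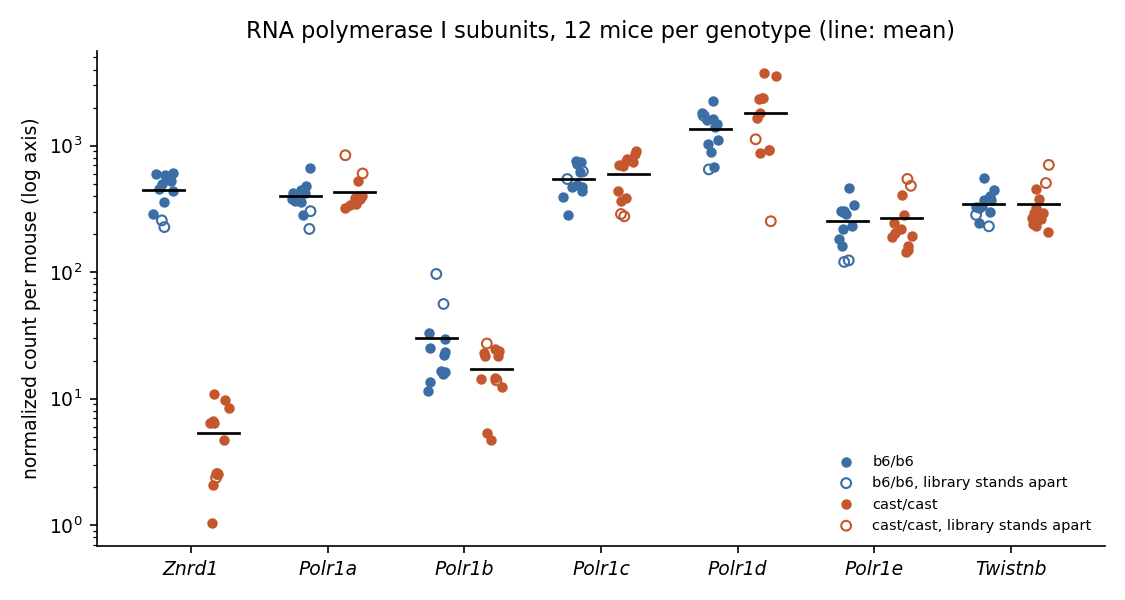
Normalized counts (log axis) of the 7 subunits in each of 12 *b6/b6* (blue) and 12 *cast/cast* (orange) mice, with open circles for the 4 libraries that stood apart and a line at each mean. *Znrd1* lies between 227.3 and 605.9 in *b6/b6* mice and between 1.04 and 10.99 in *cast/cast* mice, while the genotypes overlap in the other 6 genes.

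None of the 6 other subunits was called between genotypes at a limma P of 0.01 or less with means differing at least 1.5-fold, a rule that called 1.49% of all genes (0.471% higher and 1.01% lower in *cast/cast*). No subunit had an unadjusted limma P of at most 0.05, which 1138 of all 13998 genes had. The same share of all genes applies to the counts at this P in the lists below. With edgeR and DESeq2 on the recovered tag hits 0 of the 6 were called, although *Polr1b* had an unadjusted P of 0.0279 (adjusted P = 0.377) with edgeR and 0.0216 (adjusted P = 0.326) with DESeq2. Their log2 fold changes (*cast/cast* minus *b6/b6*) had a median of 0.06, beside −0.02 over all genes tested. Of the 6, 4 were positive and 2 negative, and with libraries rescaled to the same total *Polr1c* and *Polr1e* turned negative as well. The intervals given below bound the differences that these 24 mice leave possible, since a P that misses the threshold does not show equal levels.

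*Polr1a*, the largest subunit, which carries the catalytic centre, lies at chr6:71909053-71979360 on the plus strand. It ran from 219.7 to 661.7 with a median of 398.9 in *b6/b6* mice, and from 321.8 to 840.7 with a median of 372.2 in *cast/cast* mice. The means were 398.4 ± 113 and 433.4 ± 153 (SD, n = 12 each), a log2 difference of 0.11 ± 0.17 (SE) with a 95% interval of −0.24 to 0.46 (limma, adjusted P = 0.864). The highest *cast/cast* value was that of mouse 4, whose library stood apart, and *cast/cast* mouse 6 was the next highest at 603. The 2 *b6/b6* libraries that stood apart gave 303.7 and 219.7, so that in *Polr1a* the libraries that stood apart lay high in *cast/cast* and low in *b6/b6*.

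*Polr1b*, the second large subunit and the other wall of the catalytic cleft, had the lowest mean count of the set in *b6/b6* mice (chr2:129100996-129126595, plus strand). It ran from 11.4 to 96.8 with a median of 22.7 in *b6/b6* mice, and from 4.68 to 27.3 with a median of 18.2 in *cast/cast* mice. The genotypes overlapped, with 2 *cast/cast* mice below all *b6/b6* mice. The means were 29.98 ± 24.2 and 17.3 ± 7.52, a log2 difference of −0.64 ± 0.32 (SE) with an interval of −1.30 to 0.02 (limma, unadjusted P = 0.0583, adjusted P = 0.612). The 2 highest *b6/b6* values, 96.8 and 56.1, were those of mice 12 and 6, and the other 10 *b6/b6* mice did not exceed 32.8. Without the mice that stood apart the means were 20.7 ± 7.11 and 16.6 ± 7.504 (SD, n = 10 each).

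*Polr1c* and *Polr1d* form the assembly platform that polymerase I shares with RNA polymerase III. *Polr1c* also lies on chromosome 17 (chr17:46243920-46248045, minus strand), 0.514 Mb distal to the last marker of the CAST segment. It ran from 284.3 to 759.8 with a median of 517.5 in *b6/b6* mice, and from 276.6 to 908.4 with a median of 701.2 in *cast/cast* mice. Although the median was higher in *cast/cast*, the 2 lowest *cast/cast* values were those of mice 4 and 6 (288.3 and 276.6), and the means were 547.0 ± 150 and 601.1 ± 233 (SD, n = 12 each). The log2 difference was 0.07 ± 0.21 (SE) with an interval of −0.36 to 0.51 (limma, adjusted P = 0.933).

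*Polr1d* (chr5:147077346-147111361, plus strand), whose 2 transcripts shared a single value per mouse, had the highest mean count of the subunits in both genotypes. It ran from 649.4 to 2239 with a median of 1442 in *b6/b6* mice, and from 252.8 to 3739 with a median of 1732 in *cast/cast* mice. In *cast/cast* mice 5 of 12 lay above all *b6/b6* mice and mouse 6 lay below them all. The means were 1354 ± 487 and 1829 ± 1087, and the log2 difference of 0.23 ± 0.33 (SE) had a wide interval, −0.44 to 0.90 (limma, adjusted P = 0.853).

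*Polr1e* and *Twistnb* are subunits particular to polymerase I. *Polr1e* (chr4:45018625-45033692, plus strand) belongs to the pair of TFIIF-like subunits and had means of 253.7 ± 100 in *b6/b6* mice and 268.5 ± 135 in *cast/cast* mice (SD, n = 12 each). It ran from 120.5 to 464.9 with a median of 259.0 in *b6/b6* mice, and from 145.3 to 546.1 with a median of 212.1 in *cast/cast* mice, with a log2 difference of 0.05 ± 0.24 (SE) and an interval of −0.45 to 0.55 (limma, adjusted P = 0.967). The 2 lowest *b6/b6* and the 2 highest *cast/cast* values were again those of the libraries that stood apart.

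*Twistnb* (chr12:33429624-33439380, plus strand), the stalk subunit that meets the initiation factor *Rrn3*, ran from 230.6 to 556.5 with a median of 329.3 in *b6/b6* mice, and from 206.7 to 705.0 with a median of 293.5 in *cast/cast* mice. The means were 349.0 ± 89.8 and 346.7 ± 145, with a log2 difference of −0.06 ± 0.18 (SE) and an interval of −0.44 to 0.31 (limma, adjusted P = 0.932). *Cast/cast* mice 6 and 4, at 705.0 and 506.7, held the 2 highest values of that genotype.

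The direction of these small differences was not the same in the 2 ranges of study number, the only label that orders the mice. The genotypes differed in this number, with a median of 269.5 for *b6/b6* against 120.5 for *cast/cast*. Above 150 the *b6/b6* numbers ran from 251 to 364, while those of *cast/cast* ran from 197 to 270. The differences above 150 therefore do not compare mice matched for study number. Below 150 the log2 difference was 0.42 for *Polr1a*, 0.51 for *Polr1d*, 0.63 for *Polr1e* and 0.14 for *Twistnb*, and above 150 it was −0.16, −0.04, −0.37 and −0.27. *Polr1c* turned the other way, from −0.24 to 0.31, and *Polr1b* was lower in *cast/cast* in both (−1.07 and −0.26). None of these shifts passed a limma interaction term adjusted over all genes. The smallest unadjusted interaction P, that of *Polr1e*, was 0.0276 (adjusted P = 0.346), and 13.5% of all genes had an unadjusted interaction P of at most 0.05. All 4 libraries that stood apart fall in the lower range.

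Without these 4 libraries the log2 difference was −0.16 ± 0.13 (SE) for *Polr1a*, −0.35 ± 0.19 for *Polr1e* and −0.32 ± 0.15 for *Twistnb*, and it was −0.39 ± 0.29 for *Polr1b*, 0.30 ± 0.20 for *Polr1c* and 0.47 ± 0.27 for *Polr1d* (10 mice each). *Polr1a* and *Polr1e* thus had the sign seen above 150 and not that of the fit over all 24 mice. *Twistnb* had the smallest unadjusted limma P of the 6, 0.0462 (adjusted P = 0.555), and none was called.

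The order of mean counts was *Polr1d*, *Polr1c*, *Znrd1*, *Polr1a*, *Twistnb*, *Polr1e* and *Polr1b* in *b6/b6* mice. It is an order of transcripts only as far as each transcript gave a single tag of its own. Which tags were counted is not known, and the *Polr1b* and *Twistnb* tags are shared with other genes. *Polr1d* exceeded *Polr1c* in 12 of 12 *b6/b6* mice although their ranges overlapped, and *Polr1e* exceeded *Polr1b* in 12 of 12 without overlap. The intermediate neighbours had overlapping ranges, with *Polr1c* above *Znrd1*, *Znrd1* above *Polr1a* and *Polr1a* above *Twistnb* in 9 of 12 mice each. In *cast/cast* mice the other 6 kept this order, and *Znrd1* came last, below *Polr1b* in 10 of 12 mice. The spread between mice exceeded counting error in every subunit: in *b6/b6* the coefficient of variation was 25.7% for *Twistnb* and 30.3% for *Znrd1*, where counting error alone would give 5.26% and 4.60%, and 80.9% for *Polr1b* against 18.2%. *Znrd1* in *cast/cast* mice, with its few hits, had 61.7% against 42.3%.

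The rest of the transcription machinery of the nucleolus was then examined. Of 6 further subunits, 5 were in the table (*Polr2k* was not) and 0 were called in either direction, with a median log2 difference of 0.19. They include *Cd3eap*, the partner of *Polr1e* (154.9 ± 65.2 in *b6/b6*, 165.9 ± 72.5 in *cast/cast*), and small subunits common to the nuclear polymerases, from *Polr2f* at 0.45 ± 0.23 (SE, limma adjusted P = 0.612) to *Polr2e* at 0.00 ± 0.26. No subunit of this list had an unadjusted limma P of at most 0.05, and edgeR and DESeq2 called 0.

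Of 12 factors that start, end or regulate polymerase I transcription, 0 were called, with a median log2 difference of 0.11. At an unadjusted limma P of at most 0.05 there was 1 gene, near the share over all genes (1138 of 13998). That gene was *Tcof1*, the nucleolar phosphoprotein treacle, with 461.5 ± 132 in *b6/b6* mice and 644.0 ± 146 in *cast/cast* mice (log2 difference 0.52 ± 0.18, SE, adjusted P = 0.436). Its ratio did not reach 1.5, and edgeR and DESeq2 called 0 of the 12. The lowest was the chromatin remodeller *Smarca5*, scarce in both groups at 8.96 ± 9.62 and 4.83 ± 4.60 (−0.75 ± 0.58, SE).

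**Figure D2:**
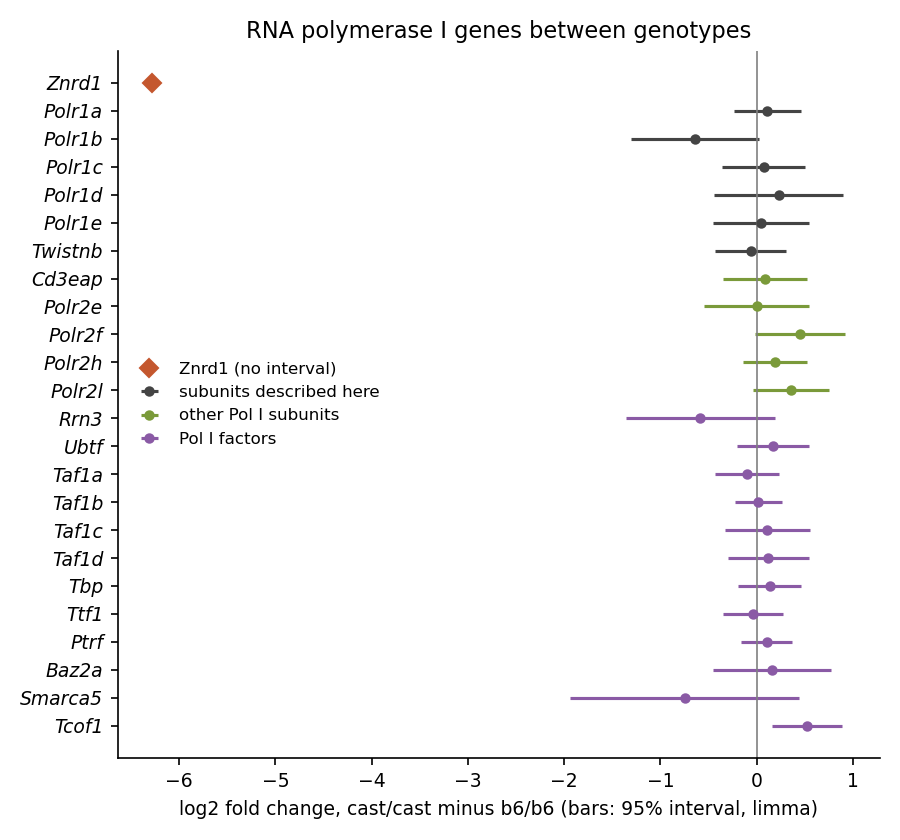
Log2 fold change (*cast/cast* minus *b6/b6*, 12 mice each) of *Znrd1*, the 6 subunits tested with it, 5 other polymerase I subunits and 12 polymerase I factors, with 95% limma intervals except for *Znrd1*. *Znrd1* lies at −6.28, the others lie between −0.75 and 0.52, and of the intervals only that of *Tcof1* leaves out 0.

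The other nuclear polymerases hold close relatives of *Znrd1*. Among 7 subunits of RNA polymerase II and 11 of RNA polymerase III, limma called 0, with median log2 differences of −0.11 and −0.08. At an unadjusted limma P of at most 0.05 there were 1 and 0, beside 1138 of all 13998 genes. Of the 2 other tools, edgeR called *Polr2a* alone, lower in *cast/cast* (DESeq2 called 0). The extremes were *Polr2j* (0.47 ± 0.20, SE, unadjusted P = 0.0289, limma adjusted P = 0.586) and the catalytic subunit *Polr2a* (−1.01 ± 0.54, 23.3 ± 39.4 against 6.27 ± 4.37) for polymerase II, and *Polr3k* (0.20 ± 0.14) and *Polr3b* (−0.33 ± 0.24) for polymerase III. In the zinc ribbon list of 5 genes, which holds the counterparts of *Znrd1* in polymerase II (*Polr2i*) and polymerase III (*Polr3k*) and 3 TFIIS elongation factors, 0 were called by limma, edgeR or DESeq2 and 0 had an unadjusted limma P of at most 0.05, with a median of 0.31. *Polr2i* was at 614.7 ± 209 in *b6/b6* mice and 747.3 ± 274 in *cast/cast* mice, and *Polr3k* at 1209 ± 305 and 1379 ± 289. *Tcea3* had the highest log2 difference of that list (0.66 ± 0.36, SE, limma adjusted P = 0.621) and *Tcea1* the lowest (−0.04 ± 0.11).

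The list of genes for ribosomal RNA processing did contain called members. Of 28 listed genes 27 were in the table (*Fbl* was not), and 2 fell in *cast/cast* mice, while 0 rose. *Wdr46*, a small-subunit processome protein, fell from 270.3 ± 90.8 to 11.3 ± 3.85 (log2 difference −4.47 ± 0.20, SE, limma adjusted P = 1.42e-15). *Rpp21*, a protein of the tRNA-trimming enzyme RNase P that was on the same list, fell from 127.1 ± 56.9 to 5.70 ± 3.69 (−4.32 ± 0.33, SE, limma adjusted P = 1.84e-10). Both lie on the CAST segment, as *Znrd1* does, where 18.9% of 419 genes were called lower, against 0.462% of genes off chromosome 17 and 1.01% of all genes, and both were called lower in all 12 alternative analyses. For genes of the segment the CAST sequence was not analysed. A lower transcript level and a tag that no longer aligned therefore cannot be told apart in these genes either. The median of the list was −0.03, and the highest was *Mphosph10*, a processome component, at 0.41 ± 0.30 (SE).

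The genes around *Znrd1* were examined next. Of 7 other genes measured within 500 kb, 0 were called, and their log2 differences lay between −0.51 (*Zfp57*) and 0.28 (*Ppp1r11*). The same rule called 1.49% of all genes, and it called 18.9% of the 419 genes of the CAST segment lower. With 7 genes, a count of 0 does not set these neighbours apart from all genes. No neighbour had an unadjusted limma P of at most 0.05, and edgeR and DESeq2 called 0. Without the 4 mice that stood apart the class I histocompatibility gene *H2-M3* was called, higher in *cast/cast* (4.88 to 9.26, log2 difference 0.83, limma adjusted P = 0.381). *Ppp1r11*, an inhibitor of protein phosphatase 1 encoded 2.57 kb away on the same strand, was at 896.0 ± 295 in *b6/b6* mice and 1055 ± 193 in *cast/cast* mice, with a log2 difference of 0.28 ± 0.16 (SE) and an interval of −0.05 to 0.61 (limma, adjusted P = 0.638). *Znrd1as*, transcribed away from *Znrd1* on the other strand, was scarce in both groups, at 10.5 ± 4.12 and 10.5 ± 4.63, with a log2 difference of −0.11 and an interval of −0.86 to 0.64 (limma, adjusted P = 0.944). The nearest called gene on the proximal side was *Rpp21*, 0.697 Mb away, and on the distal side *E130008D07Rik*, 6.19 Mb away, which fell from 34.4 to 2.59 (log2 difference −3.47 ± 0.32, SE). The 12 other genes measured between these 2 were not called.

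**Figure D3:**
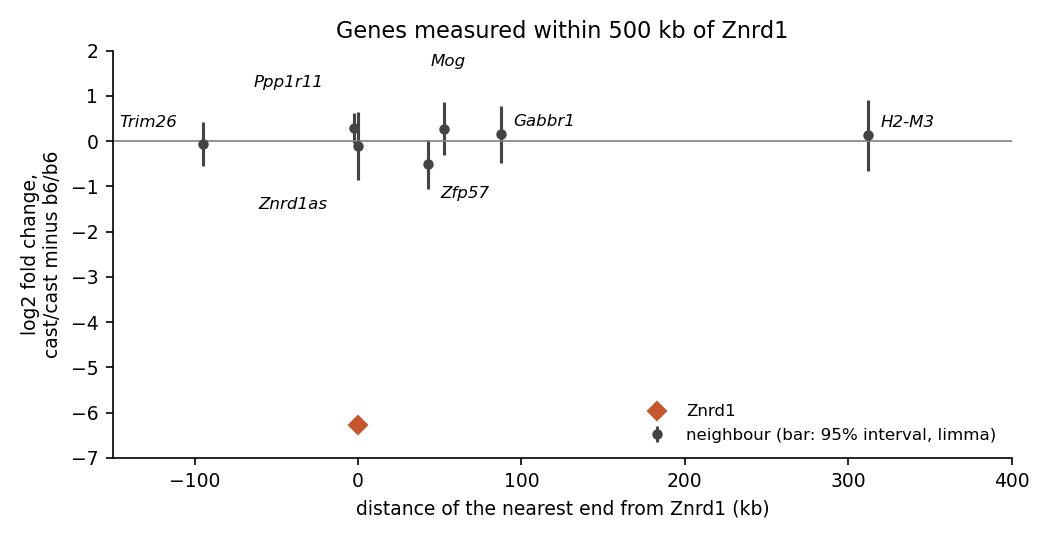
Log2 fold change (*cast/cast* minus *b6/b6*) of the 7 genes measured within 500 kb of *Znrd1* against the distance of their nearest end (kb), with 95% limma intervals, and *Znrd1* as a diamond. The neighbours lie between −0.51 and 0.28, and *Znrd1* lies at −6.28.

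The starts of *Znrd1* and *Znrd1as* have 163 bases between them and face away from each other, so their upstream windows overlap. The stretch below, on the minus strand at chr17:36958593-36958622 (GRCm38.p6, RefSeq), is shown because it holds the 2 motifs found in the *Znrd1* window, which do not overlap, in capitals, at the edge of the annotated start of *Znrd1as*.
Znrd1 upstream stretch: CCAATatgtgcgccattgattaTGACGTCA
TGACGTCA, the palindromic cyclic AMP response element, begins 165 bases upstream of the *Znrd1* start and was found in 1.79% of 32851 RefSeq windows of the same length on either strand, and CCAAT in 37.4%. Among the 7 subunits TGACGTCA was present in *Znrd1* alone and CCAAT in *Znrd1* and *Polr1a*. The other motifs searched on both strands were TATAAA (13.6% of windows), GGGCGG (35.7%), CACGTG (7.15%), CCGGAA (14.9%) and GCCATNTT (6.05%). Of these, GGGCGG was in the windows of *Polr1b*, *Polr1c* and *Polr1e* and CCGGAA in those of *Polr1c* and *Polr1e*. A match is a string of letters and not a known site.

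Whether the level of *Znrd1* went with that of its partners was examined over the 12 *b6/b6* mice, whose variation played no part in choosing the gene. Of 6 correlations on log2(normalized count + 1), that with *Polr1b* passed (Pearson r = −0.90, permutation P = 8.00e-05, adjusted P = 0.00048, and Spearman rho = −0.78, permutation test adjusted P = 0.0254). Mice with less *Znrd1* had more *Polr1b*, and the 2 mice farthest from the median, numbers 6 and 12, held the lowest *Znrd1* and the highest *Polr1b*. Without them r was −0.73, and over the 7 mice with study numbers above 150 it was −0.78. The 5 mice below 150 were too few for a value. The other 5 correlations lay between −0.06 (*Polr1d*) and 0.33 (*Polr1c*), with permutation test adjusted P of at least 0.631.

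Without the 2 *b6/b6* mice that stood apart, *Polr1a* and *Polr1c* passed as well. The correlation of *Znrd1* with *Polr1a* turned from 0.20 to −0.72 and that with *Polr1c* rose from 0.33 to 0.73, each with *Polr1b* at a permutation test adjusted P of 0.0415 over 10 mice. By Spearman rho none passed over these 10 mice, the lowest permutation test adjusted P being 0.0922. With libraries rescaled to the same total, r was taken again without the 2 mice then farthest from the *Znrd1* median. It was −0.49 for *Polr1a*, 0.26 for *Polr1c* and −0.77 for *Polr1b*. Over all 12 mice the rescaled r was −0.11 for *Polr1a*, 0.04 for *Polr1e* and −0.10 for *Twistnb*. The sign of the *Polr1a* and *Twistnb* correlations thus depends on the scaling. Those of *Polr1a*, *Polr1e* and *Twistnb* also depend on mice 6 and 12. In those 2 mice the summed level of the 2 pituitary markers measured, *Gh* and *Cga*, was 158.9 to 469.8, against a *b6/b6* median of 35.9, and that of the 4 ependymal markers was 192.5 to 319.6, against a median of 705.7. They also held the highest summed choroid plexus markers among *b6/b6* mice, 220.5 to 226.2 against a median of 157.0, and their microglial sum was 1362 to 1449, against a median of 2167. Their hypothalamic neuron sums were 15332 to 28141.5 (median 14269), up to the highest of the genotype. Their general neuron sums were 35617 to 42837 (median 41543), down to its lowest. The part of these marker levels in the correlations was not tested.

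**Figure D4:**
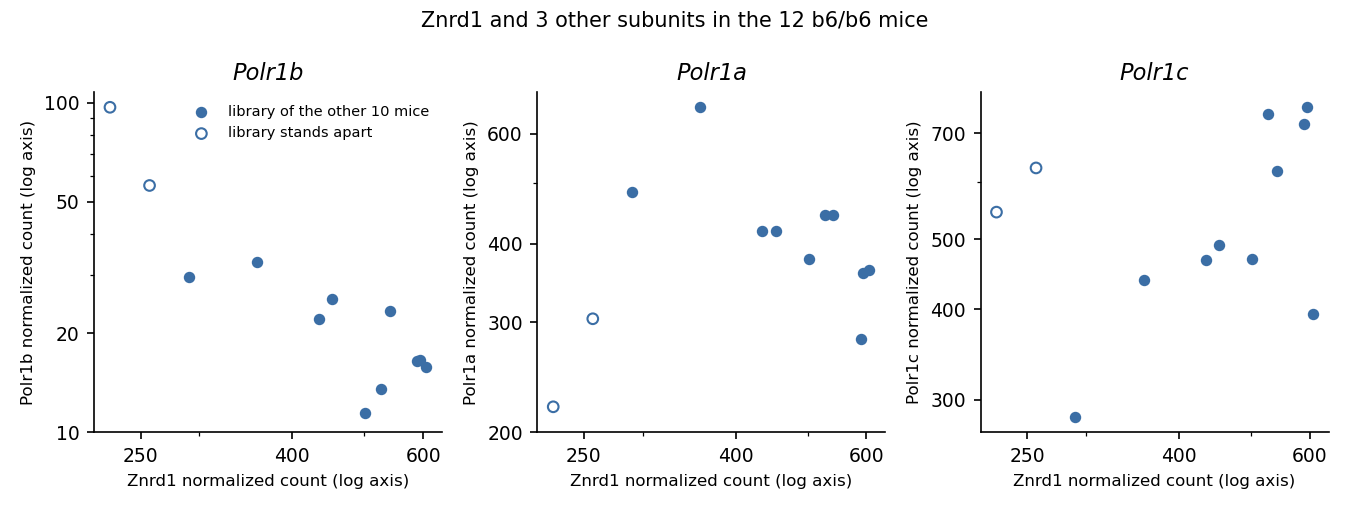
Normalized counts of *Polr1b*, *Polr1a* and *Polr1c* against that of *Znrd1* in the 12 *b6/b6* mice (both axes log), with open circles for mice 6 and 12, whose libraries stood apart. *Polr1b* falls as *Znrd1* rises (r = −0.90, and −0.73 without the open circles), while for *Polr1a* r is 0.20 with and −0.72 without them.

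The genes whose levels followed *Znrd1* most closely over the 12 *b6/b6* mice, among 9995 genes with a mean of at least 50, were *Rad23b* (r = 0.96), *Ndufs4* (0.95), *Fastkd3* (0.94), *Grcc10* (0.94) and *Hsp90ab1* (0.94). These values are a ranking by likeness, with r between 0.85 and 0.89 without mice 6 and 12, and carry no test. Of the other subunits *Polr1c* came closest, at rank 3190, and *Polr1b* was too scarce to be ranked. Of the 5 genes *Hsp90ab1* lies on chromosome 17, and none was called between genotypes, with log2 differences between −0.21 and 0.17.

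The levels of the 7 subunits were also set against the kcal each mouse took from the carbohydrate/protein diet, separately by genotype because the groups were selected on that intake. Of 14 correlations none passed, with a lowest permutation test adjusted P of 0.494 (Pearson) and 0.243 (Spearman). *Znrd1* gave r = 0.55 (permutation P = 0.0641) and rho = 0.27 (permutation P = 0.39) in *b6/b6* mice, with r at 0.26 without the 2 mice farthest from the median intake and 0.09 without the 2 that stood apart, and r = −0.05 in *cast/cast* mice. Without the mice that stood apart, *Twistnb* in *cast/cast* mice passed by Pearson only (r = 0.86, permutation test adjusted P = 0.0237 over 10 mice, and rho = 0.70, adjusted P = 0.196), and in the *b6/b6* mice it ran the other way (r = −0.73, permutation test adjusted P = 0.0852).

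**Figure D5:**
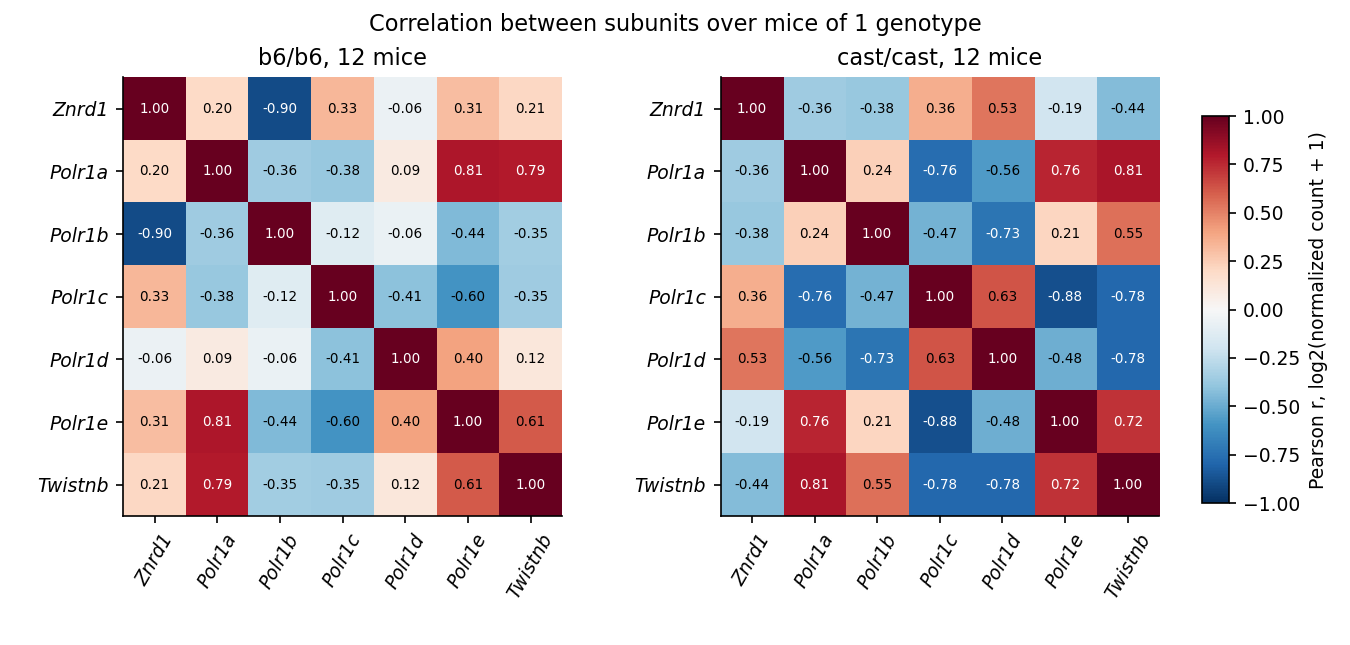
Pearson r between the 7 subunits on log2(normalized count + 1) over the 12 *b6/b6* mice (left) and the 12 *cast/cast* mice (right), from blue (−1) to red (1). *Polr1a* and *Twistnb* go together in both (0.79 and 0.81), and the r of −0.90 between *Znrd1* and *Polr1b* in *b6/b6* stands beside −0.38 in *cast/cast* mice, a difference that was not tested.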

How the data were processed

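Total RNA of 24 hypothalami was made into SAGE libraries and sequenced on a SOLiD instrument. The authors aligned the 27-base tags to RefSeq mRNA and GRCm38/mm10 with a modified SOLiD SAGE Analysis Software 1.10 and scaled tag hits with the DESeq size factor of the library, so the deposited values are a normalized signal and not raw counts. The authors also deposited their own comparison, a ratio, its log2 and p-values, which were not used. Every value was a whole multiple of 1 tag hit (100% within a tolerance of 0.01), and whole tag hits were recovered for edgeR and DESeq2. The 276 pairs of libraries all differed by more than counting error (lowest chi-square per degree of freedom 15.4).

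Rows of the same gene held identical values, and a single row of each gene was kept (19529 rows, 13998 genes, each with a mean of at least 5). Genotypes were compared with limma 3.58.1 in R 4.3.3 on log2(normalized count + 1), fitted over all genes and all 24 mice, with Benjamini-Hochberg adjustment over all genes. A gene was called where the unadjusted P was 0.01 or less and the means differed at least 1.5-fold, the thresholds of the study's methods. Correlations used two-sided permutation tests of 100000 resamples. edgeR 4.0.16, DESeq2 1.42.0, pseudocounts of 0.5 and 5, a minimum mean of 20 or none, equal totals, study number as a covariate, adjusted P, and fits without 4 mice or within a range of study numbers served as alternatives. Tested on simulated data for this comparison with 13998 genes, the limma rule recovered 88.8% of 2-fold and 99.0% of 4-fold changes and called 0.681% of unchanged genes. Changes were placed only in genes with a mean of at least 20. Counts were drawn independently, with no libraries that stood apart, so the rates do not cover scarcer genes or such libraries.

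The members and all gene lists were chosen with earlier results of these data known. Named are the 7 subunits, the called and the extreme genes of each list, the called genes among the neighbours and the 5 genes most like *Znrd1*. *Zfp57*, *Ppp1r11*, *Znrd1as*, *H2-M3*, *Cd3eap*, *Polr2i*, *Bop1*, *Polr2l*, *Rrn3* and *Tcea2* were named outside this rule after their values were seen. Tags were predicted from GENCODE transcripts matched to the RefSeq accessions, since the deposited table does not list which tags were counted. Of 721 genes without a single position in the table, 145 were placed by symbol from RefSeq and 576 were not.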

Additional observations from a re-analysis of the deposited data

How the results depend on the processing

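No paired analysis was possible because the labels identify mice by colony and study number and give no replicate numbers, and the numbers 1 to 12 used here in both genotypes only name mice. Of the 6 subunits other than *Znrd1* none was called under any of 12 alternatives, but signs turned in *Polr1a* (−0.16 without the mice that stood apart and above a study number of 150), *Polr1c* (−0.0196 with equal totals, −0.24 below 150), *Polr1d* (−0.0357 above 150), *Polr1e* (−0.0437 with equal totals, −0.35 without the mice that stood apart, −0.37 above 150) and *Twistnb* (0.14 below 150). *Polr1b* passed an unadjusted P of 0.05 with edgeR and DESeq2. With limma it did so with equal totals (0.042), study number as a covariate (0.0425) and study numbers below 150 (0.0492). The *Znrd1* log2 fold change lay between −6.44 and −5.45, the latter with a pseudocount of 5. The calls gained were 1 among the neighbours without the mice that stood apart (*H2-M3*, 4.88 to 9.26, higher in *cast/cast*), 1 among polymerase II subunits with edgeR (*Polr2a*) and, with study numbers below 150, a range that holds all 4 libraries that stood apart, 1 each among the further polymerase I subunits (*Polr2l*), polymerase I factors (*Rrn3*), polymerase II subunits (*Polr2j*) and zinc ribbon genes (*Tcea2*). With edgeR and DESeq2 the processing list held 3 calls, *Bop1* being added. Without the mice that stood apart 3 correlations of *Znrd1* and 1 with intake passed. The causes were not tested.

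Over all genes 66 were called higher and 142 lower. The split was 43 and 187 with libraries rescaled to the same total, which moved the median of all genes from −0.02 to −0.11, and 60 and 331 with edgeR, 82 and 313 with DESeq2, 231 and 227 below a study number of 150, and 20 and 60 with adjusted P. With study number as a covariate it was 80 and 232. Depth limits *Znrd1* in *cast/cast* mice, where single libraries held 1 to 12 hits.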

Other observations

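The subunits other than *Znrd1* varied with each other within a genotype. These 30 correlations (15 pairs in each genotype, on log2(normalized count + 1)) were chosen after the values had been seen. By Pearson r 10 passed an adjusted permutation P of 0.05, with 2 in the *b6/b6* group and 8 in the other, and by Spearman rho 0 passed, the lowest permutation test adjusted P being 0.0594 and 10 having an unadjusted P of at most 0.05. *Polr1a* and *Twistnb* rose together in both genotypes (r = 0.79 in *b6/b6* mice, 0.81 in *cast/cast*, each with a permutation test adjusted P of 0.0131 and rho of 0.76 and 0.70), and r was 0.67 and 0.71 without the mice that stood apart. Leaving out instead the 2 mice farthest from the *Polr1a* median gave 0.44 and 0.71. *Polr1a* and *Polr1e* did so as well in *b6/b6* (r = 0.81, permutation test adjusted P = 0.0131, rho = 0.61, and r = 0.68 without those mice). In *cast/cast* mice the r of 0.76 for that pair fell to 0.25 without them, so it rests on mice 4 and 6. Their summed hypothalamic neuron markers were 5596 to 7614, against a genotype median of 16450. Their summed general neuron markers were 46895 to 58643, against a median of 46459. The part of these marker levels was not tested.

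*Polr1c* ran against *Polr1e* in *cast/cast* mice (r = −0.88, permutation test adjusted P = 0.0093, rho = −0.73, and −0.75 without mice 4 and 6, which are also the mice farthest from the *Polr1c* median). In the 7 *cast/cast* mice with study numbers below 150, which include mice 4 and 6, it was −0.92. In *b6/b6* mice it was −0.60 (permutation test adjusted P = 0.0944). *Polr1d* ran against *Polr1b* in *cast/cast* mice (r = −0.73, permutation test adjusted P = 0.0222, rho = −0.82, and −0.82 without the mice that stood apart) but had an r of −0.06 in *b6/b6*. The difference between genotypes was not tested. The other pairs that passed by Pearson r in *cast/cast* mice were *Polr1a* with *Polr1c* (−0.76), *Polr1c* with *Twistnb* (−0.78), *Polr1d* with *Twistnb* (−0.78) and *Polr1e* with *Twistnb* (0.72), and without mice 4 and 6 these were −0.49, −0.53, −0.53 and 0.34.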
